A study of Homo sapiens with 4 samples.

Results

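Metallothioneins are small cysteine-rich proteins that bind zinc and copper and keep their free levels low. They are encoded by a cluster of near-identical genes on chromosome 16. In most cells their transcription is switched on by MTF1, a zinc-sensing transcription factor that enters the nucleus when zinc rises and binds short metal response elements in their promoters. The same factor acts on SLC30A1 (ZnT1), the exporter that moves zinc out of the cell across the plasma membrane. Described here are 9 genes of this system, of 59384 gene names in the table of fragment counts. They comprise the metallothionein genes MT2A, MT1A, MT1E, MT1F, MT1G, MT1M and MT1X, together with MTF1 and SLC30A1, and they were found by gene name. The genes were chosen by measured values of these same libraries, in which MT2A counts were low in both shFABP4 libraries. Differences between the groups in these 9 genes are therefore given as a description and carry no test.

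The libraries came from Daoy, an established human medulloblastoma cell line. The 2 pLKO libraries were labelled WT and came from cells infected with the PLKO control virus. The 2 shFABP4 libraries were labelled FABP4 knockdown and came from cells infected with a virus carrying shFABP4, a short hairpin RNA against FABP4, which encodes a fatty acid binding protein of adipocytes. Both groups had therefore been infected with a lentivirus. The labels name neither a hairpin sequence nor a time after infection. They also leave unsaid whether the numbered libraries are from different cultures, and the spread behind each p-value may for that reason be purely technical.

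Depth was 8988961 and 13839885 fragments for pLKO 1 and 2, while the library labelled shFABP4 1 held 2539862 and shFABP4 2 held 20431660. Fragments fell in 51762 gene names in the library labelled shFABP4 1, against 22350 to 25560 in the others. Judged by coding genes that had fragments only there, 45.9% of its fragments were expected as an even background over exons. Coding genes well above that background, 1214 in all and called abundant genes below, took 16.5% of its fragments and 63.2% to 65.7% in the others. FABP4 itself had 1 and 6 fragments in the pLKO libraries, 14 in the library labelled shFABP4 1 (5.23 expected as background) and 0 in shFABP4 2, where a count of 0 allows up to 0.147 CPM (fragments scaled to the library total). The count in the library labelled shFABP4 1 thus did not follow its label, but FABP4 was near 0 in the pLKO libraries too. These counts can therefore show neither a knockdown nor its absence in any library. Values are given library by library. The 9 medulloblastoma and neural progenitor markers summed to 1553 and 1570 CPM in the pLKO libraries, 1412 in the library labelled shFABP4 1 (219 expected as background) and 6519 in shFABP4 2. Most of this was the intermediate filament gene VIM (1536, 1552, 1114 and 6412 CPM). The edgeR fit without the library labelled shFABP4 1 compares shFABP4 2 alone with the pLKO pair. There the 6 tested markers had log2 fold changes from 0.71 (NES) to 5.33 (SFRP1). Their median was 1.85, against 0.04 over all tested genes. ATOH1, a marker of cerebellar granule cell precursors, had no fragment outside the library labelled shFABP4 1. The 4 adipocyte markers together reached 77.6 CPM in that library, 60.5 of it expected as background, and at most 1.66 CPM elsewhere. The 4 leukocyte markers reached 55.9 CPM there, 42.4 of it expected, and at most 3.11 CPM elsewhere. The 4 epithelial markers summed to 1956, 1989, 608 and 3424 CPM, with 89.7 CPM expected as background in the library labelled shFABP4 1. Most of each sum was KRT8 (1009, 1017, 245 and 1489 CPM) and KRT18 (947, 971, 317 and 1935 CPM). EPCAM and CDH1 reached at most 0.734 CPM outside the library labelled shFABP4 1. The part of these markers in the results below was not tested.

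MT2A, the most widely expressed human metallothionein, was the second most abundant transcript of the control cells. It lies at chr16:56608584-56609497 on the plus strand of GRCh38, with 914 exon bases, and its coding sequence of 61 codons holds 20 cysteine codons. Its promoter is shown because metal response elements are the sites through which MTF1 acts, and because those of MT1X and SLC30A1 can be read beside it. Each sequence is the 250 bases before the annotated start in the RefSeq annotation of GRCh38.p14, on the strand of the gene, and capitals mark the core of the metal response element, TGCACNC or TGCGCNC, on either strand.
MT2A: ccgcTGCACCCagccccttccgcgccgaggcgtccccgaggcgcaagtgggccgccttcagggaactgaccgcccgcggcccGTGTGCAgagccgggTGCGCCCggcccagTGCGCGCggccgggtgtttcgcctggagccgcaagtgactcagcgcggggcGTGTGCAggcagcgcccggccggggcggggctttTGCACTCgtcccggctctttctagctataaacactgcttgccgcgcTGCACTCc
MT1X: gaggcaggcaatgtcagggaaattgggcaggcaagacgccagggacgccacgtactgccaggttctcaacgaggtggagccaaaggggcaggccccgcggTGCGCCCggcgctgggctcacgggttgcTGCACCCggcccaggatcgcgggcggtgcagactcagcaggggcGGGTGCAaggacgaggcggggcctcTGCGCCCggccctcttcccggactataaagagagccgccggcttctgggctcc
SLC30A1: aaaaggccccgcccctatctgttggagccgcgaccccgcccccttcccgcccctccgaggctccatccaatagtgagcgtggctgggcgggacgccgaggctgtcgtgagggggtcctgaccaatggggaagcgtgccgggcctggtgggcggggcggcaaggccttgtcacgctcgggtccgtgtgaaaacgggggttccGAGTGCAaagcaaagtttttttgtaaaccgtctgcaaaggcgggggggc
These windows lie at chr16:56608334-56608583 (plus strand), chr16:56682220-56682469 (plus strand) and chr1:211579162-211579411 (minus strand).

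The MT2A window held 7 cores, 5 on the strand of the gene and 2 on the other. The nearest ended 2 bases before the start. At least 7 cores were present in 0.0313% of 35116 promoter windows of the same length, and in 5 of the 6768 windows within 5 points of the same GC content. MT1H, a metallothionein outside the 9 genes, had 8 cores, yet 0 fragments in both pLKO libraries and in shFABP4 2. MT1B and MT4 had 3 cores each and also 0 fragments in those libraries. In the MT1X window there were 4 cores, 3 of them on the strand of the gene, a number reached in 0.370% of all windows and in 56 of 7832 windows of like GC content. SLC30A1 had 1 core, 49 to 43 bases before its start, and at least 1 was present in 24.8% of all windows and 35.3% of those of like GC content. MTF1 had none, which says only that these letters were not in its window. The sequence TATAAA began 29 bases before the start of MT2A and 30 before that of MT1X, and occurred on the gene strand in 6.80% of all windows. RefSeq windows were at hand for 4 of the 9 genes. These matches describe letters and were not measured as binding.

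**Figure D1:**
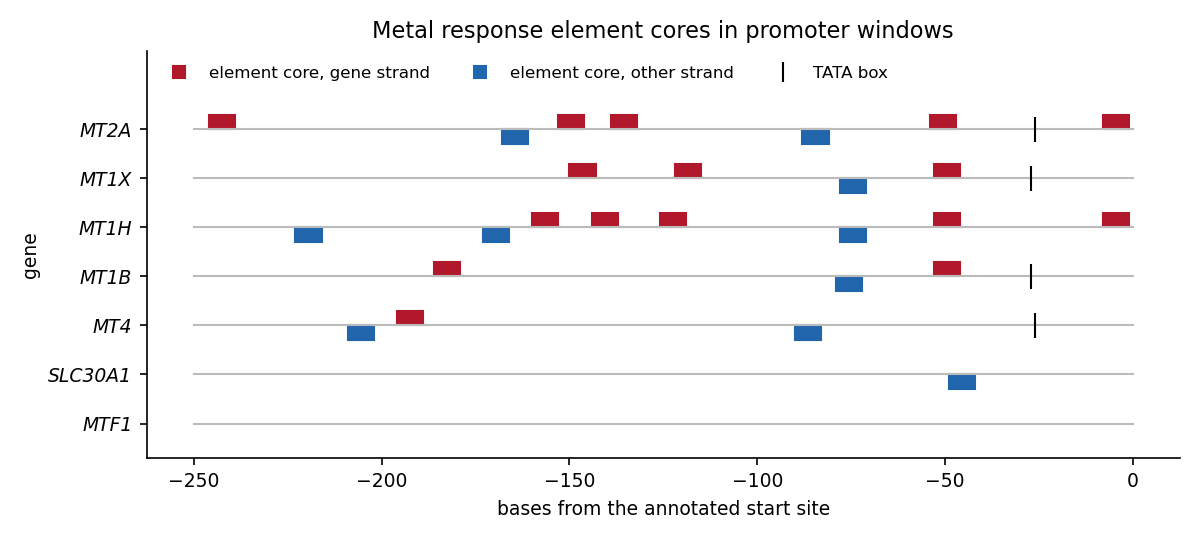
Positions of metal response element cores (7 bases each, red on the gene strand and blue on the other) and of the sequence TATAAA (black tick) in the 250 bases before the annotated start. The horizontal axis is the distance from the start in bases and each line is a gene. MT2A carries 7 cores, MT1X 4, SLC30A1 1 and MTF1 none. Of the metallothioneins outside the group, MT1H carries 8, and MT1B and MT4 3 each.

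MT2A had 141459 fragments in pLKO 1, 214748 in pLKO 2, 1931 in the library labelled shFABP4 1 and 43423 in shFABP4 2. As levels relative to the library total these were 15737, 15517, 760 and 2125 CPM. Both pLKO libraries were high and close to each other, both shFABP4 libraries were several times lower, and the groups did not overlap. In the pLKO libraries MT2A made up 1.57% and 1.55% of all fragments and ranked behind only FTL, the ferritin light chain that stores iron. Its rank was 26 in the library labelled shFABP4 1 and 56 in shFABP4 2, so it remained an abundant transcript there. Per kilobase of exon it ranked 2 in both pLKO libraries, and 10 and 13 in the shFABP4 libraries in the same order. The count of 1931 in the library labelled shFABP4 1 was 198 times the 9.77 fragments expected as background.

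The size of the MT2A difference depended on the scaling more than its direction did. By library totals MT2A was 7.35-fold lower in shFABP4 2 than the pLKO mean, and 20.6-fold lower in the library labelled shFABP4 1. Scaled to the abundant genes, the pLKO libraries stood at 11191 and 11055, the library labelled shFABP4 1 at 1875 and shFABP4 2 at 1701. On that scale the pLKO mean was 11123 ± 95.8 (SD, n = 2) and the shFABP4 mean 1788 ± 123 (SD, n = 2), a 6.22-fold difference, and both shFABP4 libraries lay close together. As a share of the fragments in abundant genes, MT2A took 2.40% and 2.36% in the pLKO libraries, 0.460% in the library labelled shFABP4 1 and 0.336% in shFABP4 2. The edgeR fit over all 4 libraries gave a log2 fold change of -3.85 (SE 1.74), and with factors from the abundant genes -2.64 (SE 0.089). Without the library labelled shFABP4 1 it was -3.12 (SE 0.020), where the spread comes from the pLKO pair alone.

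Across all genes the same fit called 0 of 14735 genes at an adjusted p under 0.05 (0% called), with 1818 at an unadjusted p under 0.05, and DESeq2 called 719. The median log2 fold change over all tested genes was 0.34, 2.30 with factors from the abundant genes and 0.04 without the library labelled shFABP4 1. Relative to those medians MT2A stood at -4.19, -4.93 and -3.16. Relative to tested genes of like GC content (within 5 points) it stood at -4.02 in the 4-library fit. In TMM-normalised CPM, both shFABP4 libraries lay below both pLKO libraries for 26.1% of tested genes and above them for 28.5%. MT2A and MT1X were among the lower genes and SLC30A1 among the higher, while MTF1 and MT1G overlapped between groups. Since this contrast entered the selection, nothing is read from these counts.

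**Figure D2:**
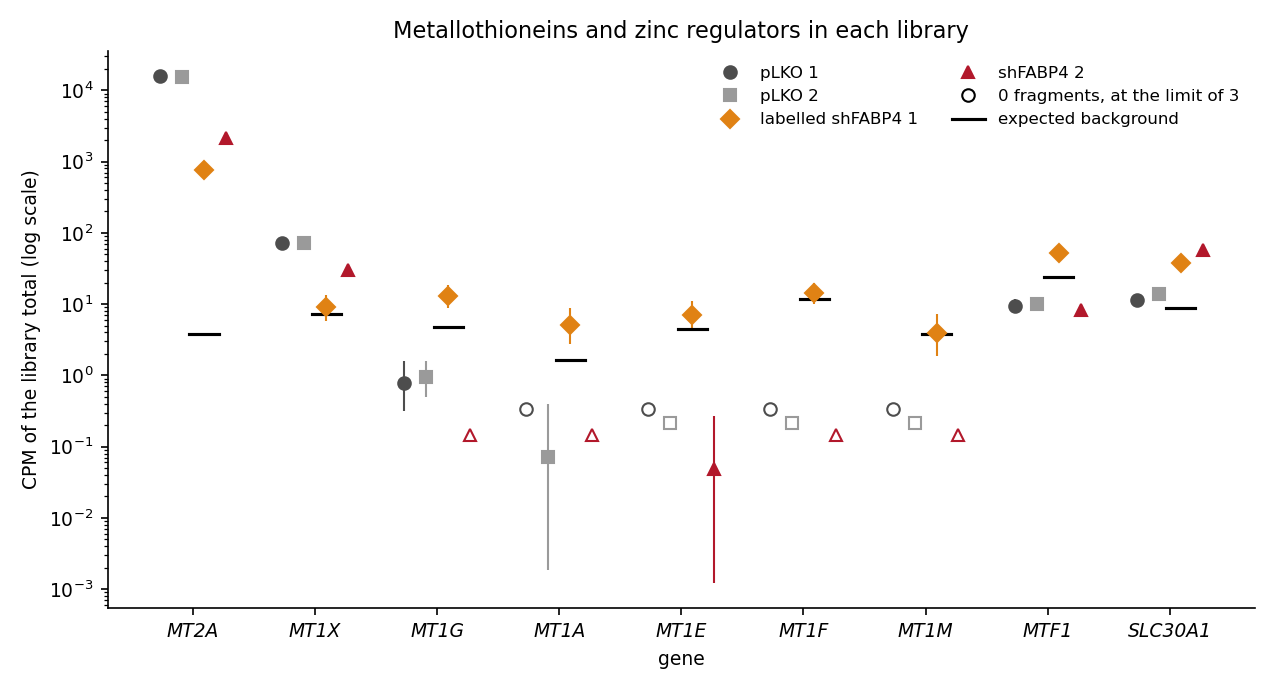
CPM of each of the 9 genes (horizontal axis) in each library (points), on a log scale, with open symbols at the limit that a count of 0 allows and black bars at the background expected in the library labelled shFABP4 1. MT2A lies far above every other gene of the group in all 4 libraries, and the 5 remaining metallothioneins are at or near 0 outside the library labelled shFABP4 1.

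MT1X, an inducible metallothionein at chr16:56682470-56684196 (plus strand, 1727 exon bases), was the next most abundant metallothionein in the pLKO libraries and shFABP4 2. It had 651 and 993 fragments in the pLKO libraries, 23 in the library labelled shFABP4 1 and 623 in shFABP4 2. The corresponding levels were 72.4 CPM (exact Poisson 95% interval 67.0 to 78.2), 71.7 CPM (67.4 to 76.4), 9.06 CPM (5.74 to 13.6) and 30.5 CPM (28.1 to 33.0), where intervals cover counting error only. The pLKO libraries agreed within counting error and both shFABP4 libraries were lower, without overlap. In the library labelled shFABP4 1, however, 18.5 of the 23 fragments were expected as background, which lies within the counting interval, and the level of MT1X there cannot be told apart from background. Its fitted log2 fold change was -2.24 (SE 0.96), -1.13 (SE 0.72) with factors from the abundant genes, and -1.49 (SE 0.078) without the library labelled shFABP4 1. Against tested genes of like GC content it stood at -2.40.

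In shFABP4 2, MT1X was 2.36-fold below the pLKO mean by library totals, where MT2A was 7.35-fold below. MT1X made up 0.458% (exact binomial 95% interval 0.424 to 0.495) and 0.460% (0.432 to 0.490) of MT1X plus MT2A fragments in the pLKO libraries. The share was 1.18% (0.748 to 1.76) in the library labelled shFABP4 1 and 1.41% (1.31 to 1.53) in shFABP4 2. With the expected background subtracted, 4.55 of the 23 MT1X fragments in the library labelled shFABP4 1 were left and the share there was 0.236%, below both pLKO libraries. Since MT1X there cannot be told apart from background, its share cannot be placed above or below the pLKO pair. The higher share thus rests on shFABP4 2. The ratio is independent of library scaling, but its denominator is MT2A, which was selected for low counts in these libraries, and the intervals cover counting error only, so it is given as a description. Per kilobase of exon, MT1X stood at 0.244% and 0.245% of the MT2A level in the pLKO libraries, at 0.759% in shFABP4 2 and, background included, at 0.630% in the library labelled shFABP4 1. MT1X may be undercounted, because the annotation in use places the clone-named gene RP11-343H19.2 over 94 of its 183 coding bases and over 18.6% of its exon bases. That gene had 0 fragments in every library, and how fragments in the shared bases were assigned was not tested.

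**Figure D3:**
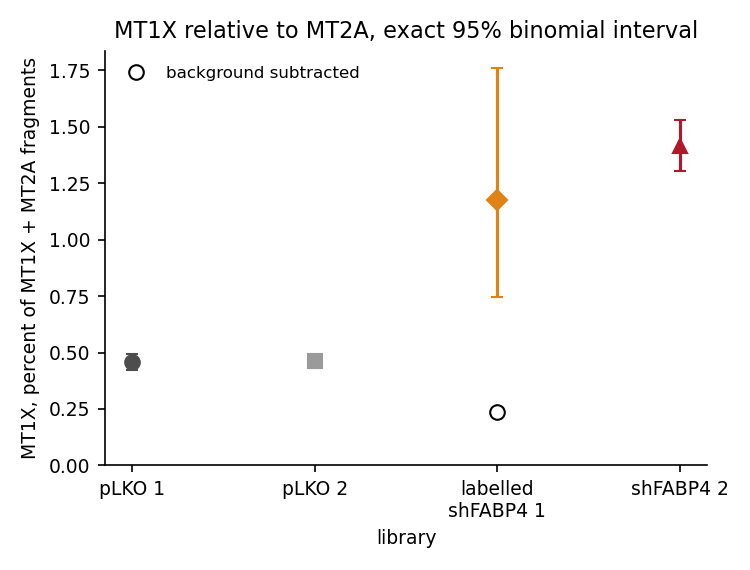
MT1X fragments as a percent of MT1X plus MT2A fragments (vertical axis) in each library, with exact 95% binomial intervals that cover counting error only. The pLKO libraries sit at 0.458% and 0.460% and shFABP4 2 at 1.41%, while the library labelled shFABP4 1 moves from 1.18% to 0.236% (open circle) when its expected background is subtracted.

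The other 5 metallothioneins of the group were close to absent. MT1G, the best represented of them, had 7 and 13 fragments in the pLKO libraries, 33 in the library labelled shFABP4 1 (12.2 expected as background) and 0 in shFABP4 2. MT1A had 1 fragment in pLKO 2, 13 in the library labelled shFABP4 1 (4.23 expected) and none elsewhere. MT1E had 18 fragments in that library (11.2 expected) and 1 in shFABP4 2. MT1F had 36 (30.2 expected) and MT1M 10 (9.59 expected) in that library, and both had none in the other 3. Outside the library labelled shFABP4 1 the 5 genes together gave 7, 14 and 1 fragments, and in it 110 against 67.5 expected. A count of 0 allows up to 0.334 CPM in pLKO 1, 0.217 CPM in pLKO 2 and 0.147 CPM in shFABP4 2. Of all 9 genes, 5 passed the low-count filter (MT2A, MT1X, MT1G, MTF1 and SLC30A1), and MT1G passed it on few fragments. Its fitted log2 fold change of 1.80 (SE 2.27) turned to -6.78 (SE 1.79) without the library labelled shFABP4 1, a value set by the 0 in shFABP4 2.

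Near-identity between these genes limits how fragments can be assigned. In coding sequence MT1G shared 94.1% of aligned bases with MT2A, MT1X 92.9%, MT1A and MT1E 92.3%, MT1F 91.3% and MT1M 89.6%. The processed pseudogene MT2P1 on chromosome 4 was 97.3% identical to the MT2A coding sequence (178 of 183 bases). It had 316 and 429 fragments in the pLKO libraries, 8 in the library labelled shFABP4 1 and 87 in shFABP4 2. This was 0.223%, 0.200%, 0.414% and 0.200% of the MT2A count in the same libraries, so MT2P1 followed MT2A in the 3 libraries with little background, and its fragments cannot be told apart from misplaced MT2A fragments with these counts. The table held 14 further metallothionein gene names beside the 7, pseudogenes included. MT3, known from brain, had 0, 1, 29 and 0 fragments in the order above (27.4 expected as background in the third), and MT4, known from squamous epithelium, had 0, 0, 8 and 0 (4.40 expected). MT2A made up 99.3% of all metallothionein fragments in both pLKO libraries, 88.1% in the library labelled shFABP4 1 (95.4% with its background subtracted) and 98.3% in shFABP4 2.

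The metallothionein members span 75.6 kb, with MT2A at one end and MT1X at the other. Of the expressed genes on either side, BBS2, a component of the ciliary BBSome, lies 25.9 kb before and NUP93, a nuclear pore scaffold protein, 45.9 kb after. BBS2 had 31, 50, 90 (84.7 expected as background) and 146 fragments, and NUP93 had 564, 913, 204 (85.8 expected) and 1151, in the order pLKO 1, pLKO 2, shFABP4 1 by label and shFABP4 2. Without the library labelled shFABP4 1, edgeR gave BBS2 a log2 fold change of 0.77 (adjusted p = 0.00464) and NUP93 -0.44 (adjusted p = 1.29e-07). In the same fit NUDT21, a polyadenylation factor gene 156 kb before and the farthest on that side, stood at 1.79 (adjusted p = 8.48e-11). OGFOD1, a prolyl hydroxylase gene 129 kb before, stood at -0.01 (adjusted p = 0.886) and HERPUD1, an endoplasmic reticulum stress gene beyond NUP93, at 0.32 (adjusted p = 0.0116). NLRC5, a regulator of MHC class I genes farther out, stood at 0.58 (adjusted p = 0.000741). The 6 flanking genes thus had log2 fold changes between -0.44 and 1.79 where MT2A had -3.12. In the 4-library fit none of them passed the threshold, and their adjusted p-values ran from 0.392 to 0.906.

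MTF1, the zinc-sensing activator of these genes, lies at chr1:37809574-37859592 on the minus strand with 7989 exon bases. It had 85, 138 and 171 fragments in pLKO 1, pLKO 2 and shFABP4 2, and 133 in the library labelled shFABP4 1, of which 61.6 were expected as background. Its levels were 9.46, 9.97 and 8.37 CPM in the libraries with little background and 52.4 CPM in the library labelled shFABP4 1. The pLKO values and shFABP4 2 lay close together, with overlapping Poisson intervals (7.55 to 11.7, 8.38 to 11.8 and 7.16 to 9.72 CPM), and the groups overlapped in TMM-normalised CPM. The fitted log2 fold change was 0.73 (SE 0.76) with all libraries and -0.46 (SE 0.19) without the library labelled shFABP4 1, or -0.05 (SE 0.19) when factors from the abundant genes were used as well. The direction for MTF1 thus turned with 1 library and its size with the scaling.

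SLC30A1, at chr1:211571568-211579161 on the minus strand with 5893 exon bases, went the other way from MT2A. It had 103 and 193 fragments in the pLKO libraries, 96 in the library labelled shFABP4 1 (22.5 expected as background, a 4.27-fold excess) and 1182 in shFABP4 2. The levels were 11.5, 13.9, 37.8 and 57.9 CPM in that order. Both shFABP4 libraries stood above both pLKO libraries, shFABP4 2 by 4.55-fold over the pLKO mean. Scaled to the abundant genes the values were 8.15, 9.94, 93.2 (71.4 after subtracting the background) and 46.3. The fitted log2 fold change was 1.40 (SE 0.65), 2.94 (SE 0.85) with factors from the abundant genes and 1.92 (SE 0.11) without the library labelled shFABP4 1. Without shFABP4 2 it was -0.69 (SE 0.19), so the direction in the remaining library depended on how it was scaled. As CPM per kilobase of exon MT2A stood at 17218 in pLKO 1 and 2325 in shFABP4 2, and SLC30A1 at 1.94 and 9.82, so the metallothionein transcript stayed far above that of the exporter.

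**Figure D4:**
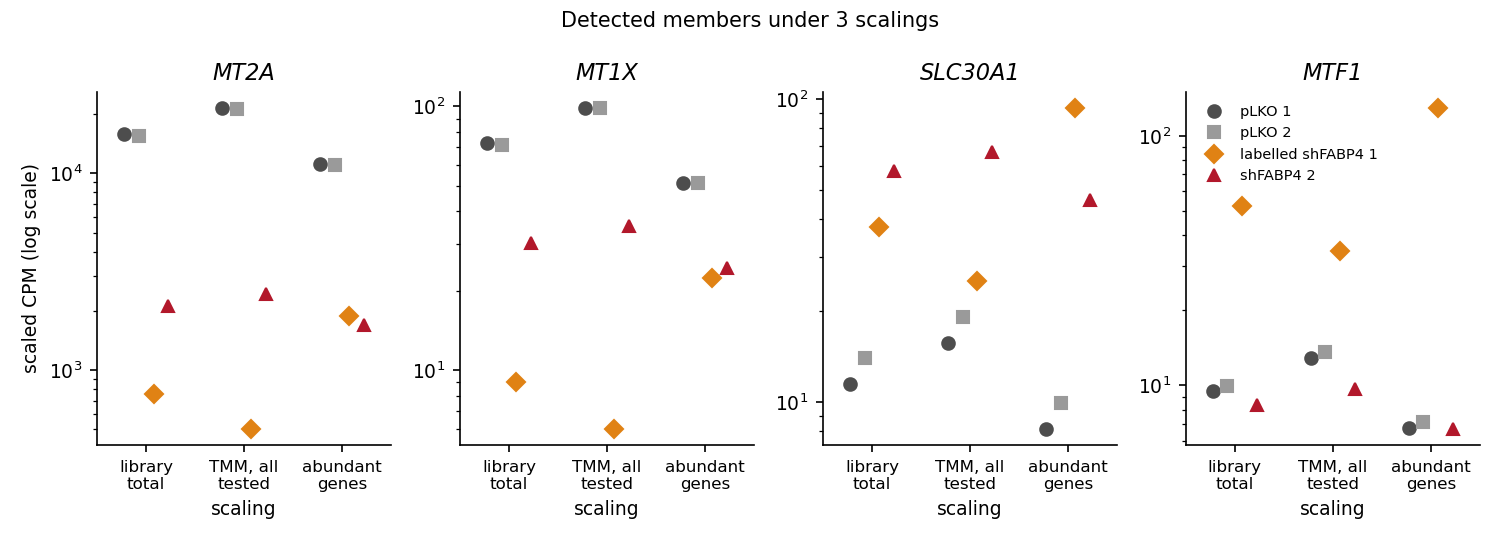
Level of the detected members MT2A, MT1X, MTF1 and SLC30A1 (panels) in each library (points) under 3 scalings, by library total, by TMM and by the abundant genes, on log axes. MT2A and MT1X lie lower in both shFABP4 libraries under each scaling, SLC30A1 lies higher, and MTF1 is high only in the library labelled shFABP4 1.

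The genes whose pattern over the 4 libraries was nearest to that of MT2A were sought among 8305 genes with a mean of at least 100 fragments. Likeness was the root mean square difference in log2 TMM-normalised CPM after centring each gene. The nearest was CXCL5, a neutrophil-attracting chemokine, with a difference of 0.056. It had 1876 and 2963 fragments in the pLKO libraries, 23 in the library labelled shFABP4 1 and 611 in shFABP4 2. CYBA, the p22phox subunit of NADPH oxidase, followed at 0.133 with 16172, 27568, 282 and 5942 fragments. The clone-named RP11-832N8.1 stood at 0.145 and SERF2 at 0.247. MT1X ranked 139 of 8304 by the same measure, at 0.784. In the library labelled shFABP4 1, the CXCL5 and CYBA counts lay above the 9.30 and 61.0 fragments expected as background. SERF2 (91 against 98.1) and RP11-832N8.1 (2 against 2.98) lay under theirs. Likeness was computed with this background left in, so the order of the genes, with CXCL5 at 23 fragments there, depends on it in part.

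The other zinc transporters gave no common direction. Of 9 further SLC30 exporters, which move zinc out of the cytosol, 6 were tested and 0 passed the threshold in the 4-library edgeR fit, with 0 at an unadjusted p under 0.05 and 0 by DESeq2. Their median log2 fold change was 0.27, against 0.34 over all genes. All 6 were under 2 times the expected background in the library labelled shFABP4 1, so the values without it are given too. There 2 rose and 2 fell, against 34.2% of 15301 tested genes called higher and 32.7% called lower. SLC30A5, a zinc carrier of the early secretory pathway, had 79, 122, 37 and 443 fragments, pLKO libraries first, and rose by a log2 fold change of 1.05 in that fit (edgeR adjusted p = 9.12e-09). SLC30A6, its partner there, had 202, 307, 37 and 326 fragments and a log2 fold change of -0.73 (adjusted p = 5.83e-06).

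Of 14 SLC39 importers, which bring zinc into the cytosol, 10 were tested and 0 passed in the 4-library fit, with 2 at an unadjusted p under 0.05 and 0 by DESeq2. In 6 of the 10 both shFABP4 libraries lay below both pLKO libraries and in 2 above, against 26.1% and 28.5% of all tested genes. The median log2 fold change was -0.53. Without the library labelled shFABP4 1 the median of the importers was -0.34, against 0.04 over all tested genes. With factors from the abundant genes as well it was 0.07, against 0.45 over all tested genes. SLC39A13, a zinc transporter of the Golgi, stood at 242 and 247 CPM in the pLKO libraries, 81.5 in the library labelled shFABP4 1 and 184 in shFABP4 2, and fell by 0.66 on the log2 scale without the library labelled shFABP4 1 (edgeR adjusted p = 2.99e-23). SLC39A3 stood at 157, 148, 71.3 and 38.4 CPM in the same order, and fell by 2.23 on the log2 scale (adjusted p = 1.88e-45). SLC39A10, a plasma membrane importer named after its values were seen, went the other way with 172, 247, 110 and 1424 fragments and a log2 fold change of 1.68 (adjusted p = 8.44e-28). These p-values rest on the spread of the pLKO pair alone, and in the 4-library fit the adjusted p was 0.477 for SLC39A13, 0.391 for SLC39A3 and 0.437 for SLC39A10.

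**Figure D5:**
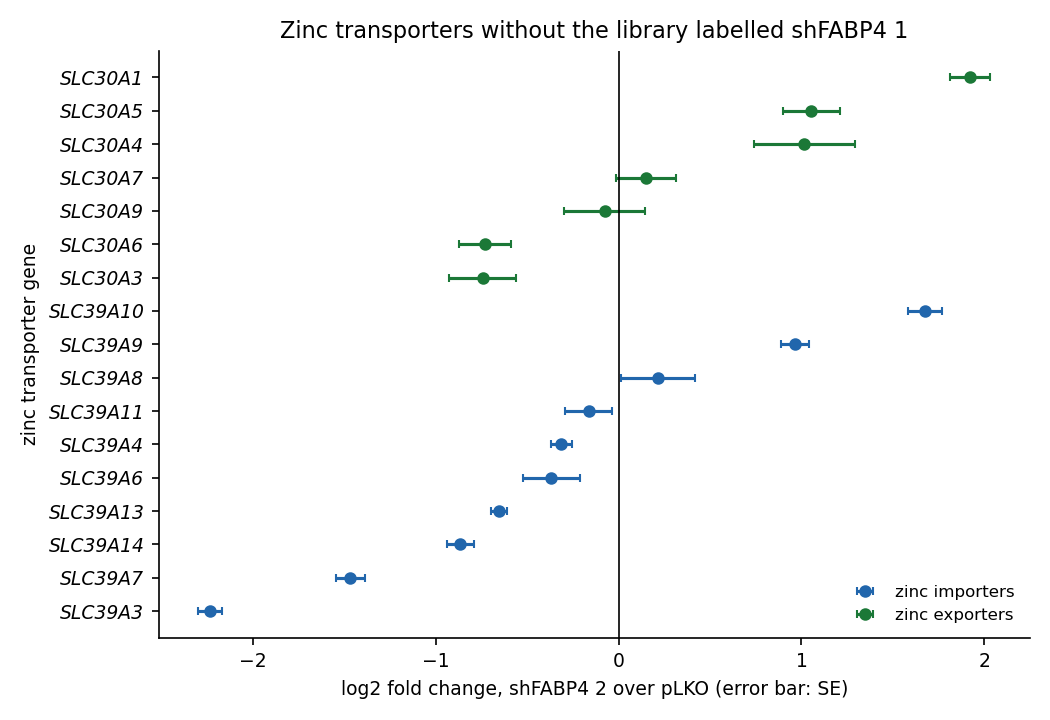
Log2 fold change of shFABP4 2 over the pLKO libraries (horizontal axis, bars are SE) for tested SLC30 and SLC39 zinc transporter genes (vertical axis), from the edgeR fit without the library labelled shFABP4 1. SLC30A1 (1.92) and SLC39A10 (1.68) lie far to the right and SLC39A3 (-2.23) far to the left.

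Copper is the other metal bound by metallothioneins. Of 11 copper-handling genes 9 were tested, 0 passed with all libraries (2 at an unadjusted p under 0.05, 1 by DESeq2) and the median log2 fold change was -0.42. Without the library labelled shFABP4 1, 2 rose and 3 fell by edgeR, and 6 rose and 3 fell with factors from the abundant genes, beside 34.2% higher and 32.7% lower, and 49.1% and 22.5%, over all tested genes. ATOX1, a chaperone that carries copper to the secretory pathway, stood at 641 and 653 CPM in the pLKO libraries, 60.6 in the library labelled shFABP4 1 and 220 in shFABP4 2. It fell by 1.80 on the log2 scale without the library labelled shFABP4 1 (edgeR adjusted p = 1.02e-54). SOD1, the copper and zinc superoxide dismutase, stood at 167, 170, 139 and 408 CPM and rose by 1.03 (adjusted p = 1.00e-36). With all libraries their adjusted p-values were 0.397 and 0.890.

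Glucocorticoids and heat or metal stress also induce MT2A, and lists of genes for both were examined. Of 10 glucocorticoid-response genes 9 were tested, 0 passed with all libraries (2 at an unadjusted p under 0.05, 0 by DESeq2), and the median was -0.98. Both shFABP4 libraries lay below both pLKO libraries for 5 of them and above for 2, against 26.1% and 28.5% of all tested genes. Without the library labelled shFABP4 1, 1 rose and 5 fell by edgeR, and with factors from the abundant genes 5 rose and 4 fell. The second scaling moved the median of all tested genes from 0.04 to 0.45 in log2 fold change, and the shares called over all genes from 34.2% higher and 32.7% lower to 49.1% and 22.5%. CEBPD, a transcription factor, stood at 36.4, 37.9, 16.5 and 45.6 CPM with a log2 fold change of 0.05 without the library labelled shFABP4 1 (adjusted p = 0.649). DUSP1, a MAP kinase phosphatase, stood at 86.1, 81.6, 28.0 and 43.0 CPM and fell by 1.21 (adjusted p = 1.43e-25). FKBP5, a cochaperone of the glucocorticoid receptor named after its values were seen, had 612, 882, 77 (53.5 expected as background) and 350 fragments. It fell by 2.18 on the log2 scale without the library labelled shFABP4 1. With all libraries its log2 fold change was -2.18, or -0.096 with factors from the abundant genes. In the 4-library edgeR fit the adjusted p was 0.681 for CEBPD, 0.391 for DUSP1 and 0.391 for FKBP5. PER1, a circadian repressor also named after its values were seen, stood at 81.3 and 81.0 CPM in the pLKO libraries, 110 in the library labelled shFABP4 1 (280 fragments, 131 expected as background) and 6.46 in shFABP4 2. In the fit without the library labelled shFABP4 1 it fell by 3.89 on the log2 scale (edgeR adjusted p = 4.72e-48), further than MT2A at -3.12, and with all libraries its log2 fold change was -1.47 (adjusted p = 0.515), or 1.26 with factors from the abundant genes. Of the 9, 5 were under 2 times the background in the library labelled shFABP4 1.

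All 10 genes of the metal and proteotoxic stress list were tested and 0 passed with all libraries (1 at an unadjusted p under 0.05, 0 by DESeq2), with a median of -0.71 and 6 of 10 below both pLKO libraries in both shFABP4 libraries. Without the library labelled shFABP4 1, 1 rose and 6 fell by edgeR, against 5 and 3 with factors from the abundant genes. Over all tested genes 26.1% lay below in both shFABP4 libraries, 34.2% and 32.7% were called higher and lower without that library, and 49.1% and 22.5% with abundant-gene factors as well. HSPB1, a small heat shock protein, stood at 1429, 1439, 190 and 1520 CPM. Its log2 fold change without the library labelled shFABP4 1 was -0.16 (edgeR adjusted p = 1.78e-07), and 0.25 with factors from the abundant genes. BAG3, a cochaperone of HSP70, stood at 224, 221, 49.2 and 124 CPM and fell by 1.09 without the library labelled shFABP4 1. With all libraries the edgeR adjusted p was 0.717 for HSPB1 and 0.410 for BAG3.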

How the data were processed

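RNA from 4 Daoy libraries was prepared with TRIzol, enriched for mRNA on capture beads and fragmented with Tn5, per the labels' protocols. The authors deposited whole-number counts of fragments for each gene name, from featureCounts 2.0.0 over exons of GENCODE 38, per the file headers, with no strand option and no option for fragments that touch several genes. The submitters' processing notes name FastQC, HISAT, StringTie (no versions given) and GRCh38. Unstranded counts cannot tell a gene from an overlapping or antisense partner. Of the table's lines, 7 held no readable gene row and were left out (the broken entry of ANK2).

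Libraries held 2539862 to 20431660 fragments. Counts were tested with the edgeR 4.0.16 quasi-likelihood F test in R 4.3.3 (TMM factors, genes kept by filterByExpr at a minimum count of 10, total 15, two-sided), with Benjamini-Hochberg adjustment over every tested gene and 0.05 as threshold. An exact permutation test of 2 against 2 libraries cannot reach 0.05. The script was tested on simulated data. Both pLKO libraries were kept as separate samples, since their counts over 13291 genes differed beyond sampling noise (chi-square divided by its degrees of freedom 2.16). CPM are counts scaled to a common library total, and a count of 0 allows up to 3 fragments. Background in shFABP4 1 was estimated per kilobase in bins of GC content from 2657 coding genes that were empty in the remaining 3. Abundant genes had expected RNA at least 5 times that background. GC content was computed with GENCODE 29 (63.6% of gene names matched), and promoters were taken from RefSeq GRCh38.p14.

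The members, lists and rules were chosen with earlier results of these data known. Named are all members, the genes past the threshold of each list or, where none passed, the 2 with the highest mean count per kilobase, and the 5 genes nearest to MT2A among coding or untyped genes, of which 1 item is not reported here. Likeness used a pseudocount of 0.5 normalised CPM. Alternatives were other scalings, DESeq2 1.42.0, no low-count filter, background subtraction, the replicate block and each library left out. Abundant-gene factors without shFABP4 1, and the comparison with genes of like GC content, were added after seeing the data.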

Additional observations from a re-analysis of the deposited data

How the results depend on the processing

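The number of genes called by edgeR was 0 with TMM, RLE and upper-quartile factors, library totals and factors from abundant genes. It was 69 of 52418 without the low-count filter, 719 with DESeq2, and from 0 to 23895 when 1 library was left out (0 without either pLKO library, 10242 without shFABP4 1 and 23895 without shFABP4 2). With a replicate block it was 28. The deviations of same-numbered libraries correlated at 0.011 over 14735 genes. The shFABP4 pair differed far more than the pLKO pair (chi-square divided by its degrees of freedom 359 against 2.16). This correlation therefore cannot tell whether the numbers 1 and 2 mark a pairing. MT2A (from -6.61 to -2.64) and MT1X (from -5.23 to -1.07) kept a lower log2 fold change in shFABP4 under all 14 alternatives. MT2A was selected for low counts in both shFABP4 libraries, so its kept direction is no independent test. The -5.23 of MT1X came without shFABP4 2 and rests on 23 fragments in shFABP4 1, of which 18.5 were expected as background. SLC30A1 kept its direction in 13 of 14, turning to -0.69 without shFABP4 2, where leaving out 1 library gave -0.69 to 1.92. MTF1 kept its direction in 12 of 14, with -0.46 without shFABP4 1, -0.051 with abundant-gene factors as well, and -0.46 to 0.18 over libraries left out. MT1G turned to -0.46 with the replicate block, -6.78 without shFABP4 1 and -6.59 with abundant-gene factors as well, and ranged from -6.78 to 1.64 over libraries left out. Among the list genes, SOD1 turned to -0.14 with the replicate block and -2.53 without shFABP4 2, where leaving out 1 library gave -2.53 to 1.03. CEBPD turned to 0.55 with abundant-gene factors, 0.042 after subtracting background too, 0.046 without shFABP4 1 and 0.46 with both, and ranged from -3.42 to 0.046 over libraries left out. PER1 turned to 1.26 with abundant-gene factors and 0.37 after subtracting background too. HSPB1 turned to 0.25 without shFABP4 1 with abundant-gene factors, and SLC30A6 to 0.60 with abundant-gene factors. Without shFABP4 2, SLC30A5 turned to -1.52 (libraries left out gave -1.52 to 1.05) and SLC39A10 to -1.01 (-1.01 to 1.68). The cause was not tested. Depth limits the shallow library, where 1 fragment is worth 0.394 CPM against 0.0489 CPM in shFABP4 2.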
